A study of Mus musculus with 12 samples.

Results

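Ly6d and the genes that share its short Ly6 name were followed in mouse ovaries with and without tumors. The members were the probe sets whose platform annotation carries, as its only symbol, Ly6 followed by a letter from a to k and at most 1 further digit. This rule took 4 probe sets of 4 genes, Ly6d, Ly6g2, Ly6h and Ly6i, out of 14674 probe sets of 10949 genes. Ly6d leads the group because it was chosen by its log2 levels in these same arrays, where its rise in tumor ovaries was already known, so its values are given as a description with no test. The other 3 members follow from the rule on symbols, which was itself set with earlier results of these data known. No probe set carried the symbol of Ly6a alone in the annotation used here, and Ly6a was not analysed here.

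Expression was measured on 12 arrays of ovaries from female mice, all 23 weeks old and in diestrus, a quiet phase of the estrous cycle. Stage II and stage I ovaries, 3 of each, came from Pgrcre/+PgrBLsL/+ mice with a tumor of that stage. The 6 control ovaries came from Pgrcre/+ mice with no tumor, so all 12 arrays share the Pgrcre allele. Pgr encodes the progesterone receptor, and a Cre allele named for it is expected to act in cells that use that gene. The PgrBLsL allele was present in all tumor ovaries and in no other, so allele and tumor cannot be told apart. The labels call the arrays of a group bioreplicates and do not name the animals, so p-values measure the spread between these samples.

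Ly6 proteins are small cell-surface proteins, most of them tied to the membrane by a glycosylphosphatidylinositol (GPI) lipid anchor. They share a compact domain of finger-like loops held by disulfide bonds, which is also found in the urokinase receptor uPAR, in CD59 and in several secreted proteins. Mouse Ly6 genes are widely used as surface markers of blood cells. Ly6d is known in mouse from early B-lineage precursors and from keratinocytes of stratified epithelia. The mouse genes of the 4 members lie on chromosome 15 in the RefSeq table of assembly GRCm38.p6.

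Values are log2 levels as deposited, running from 2.69 to 14.4 over the whole table, with array medians between 7.09 and 7.15. No background level was available, so a fold is a ratio of deposited values. In ovary tissue as a whole, more cells that express a gene and more RNA per cell cannot be told apart. Pgr was at 9.78, 9.96 and 10.09 in stage II, at 9.11, 9.05 and 9.28 in stage I, and in controls between 3.74 and 4.60, which separates the genotypes as labelled. The 10 measured ovary markers averaged 8.76 to 9.74 in stage II, 10.22 to 10.57 in stage I and 10.13 to 10.50 in controls. In stage II 9 of these 10 were lower than in controls by limma (adjusted p under 0.05), beside 11% of all genes called lower, among them Cyp17a1, the 17-hydroxylase of theca cells (log2 difference -2.68, or -1.29 without stage II replicate 3), and Zp3, a zona pellucida protein (-0.81).

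Ly6d had the largest differences of the 4 members. Its log2 level was 12.25, 12.34 and 12.48 in stage II, 10.00, 8.38 and 7.97 in stage I, and 5.87, 6.16, 5.35, 5.59, 5.41 and 5.50 in control replicates 1 to 6. The 3 groups did not overlap, with stage II highest and controls lowest. The lowest stage II array exceeded the highest stage I array by 2.24, and the lowest stage I array exceeded the highest control by 1.82 on the log2 scale. Group means were 12.36 ± 0.11 (SD, n = 3) in stage II, 8.78 ± 1.08 (SD, n = 3) in stage I and 5.65 ± 0.31 (SD, n = 6) in controls. These means give 105-fold more in stage II than in controls (log2 6.71 ± 0.34 SE), 8.80-fold more in stage I than in controls (3.14 ± 0.34 SE) and 11.9-fold more in stage II than in stage I (3.57 ± 0.39 SE). The comparisons of both stages with controls use the same 6 control arrays. Ly6d in controls lay below the median of every array, so its folds over controls rest on low values with no measured background. Ranked from the largest increase down, Ly6d was at place 9 of 14674 probe sets in stage II against control. It was at place 14 in stage I against control and at place 3 in stage II against stage I.

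**Figure D1:**
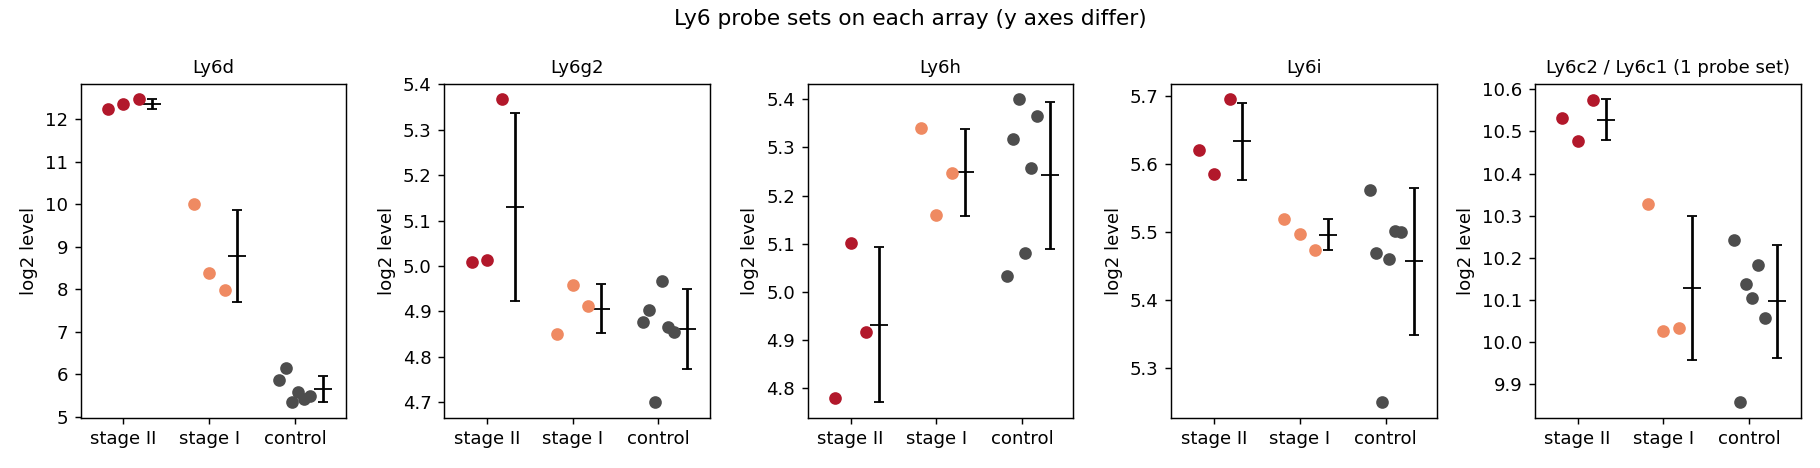
Log2 levels (y axis, scaled separately in each panel) of the 4 member probe sets and of the probe set shared by Ly6c2 and Ly6c1 in stage II, stage I and control ovaries (x axis). Points are single arrays and bars are the mean ± SD. Ly6d spans 5.35 to 12.48 with no overlap of groups, whereas Ly6g2, Ly6h and Ly6i stay between 4.70 and 5.70 on all arrays.

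The stage I ovaries differed more among themselves in Ly6d than the stage II ovaries. The spread in stage I was 1.08 (SD) against 0.11 in stage II and 0.31 in controls, so the SE shared by all groups understates that of stage I. Stage I replicate 1, at 10.00, was the highest of them. Without that array stage I exceeded controls by 5.77-fold and stage II exceeded stage I by 18.2-fold. Pgr did not follow this order, since stage I replicate 3 had the highest Pgr of the stage I arrays and the lowest Ly6d. Of the 13 gene lists described further on, 8 were also highest in stage I replicate 1 among the stage I arrays, namely the Ly6/uPAR relatives and the interferon, macrophage, neutrophil and monocyte, T and NK cell, B cell, endothelial and ovary lists, with a mean log2 level of 9.05 in replicate 1 against 8.38 and 8.69 in replicates 2 and 3 for macrophage markers. Their part in the Ly6d level was not tested.

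**Figure D2:**
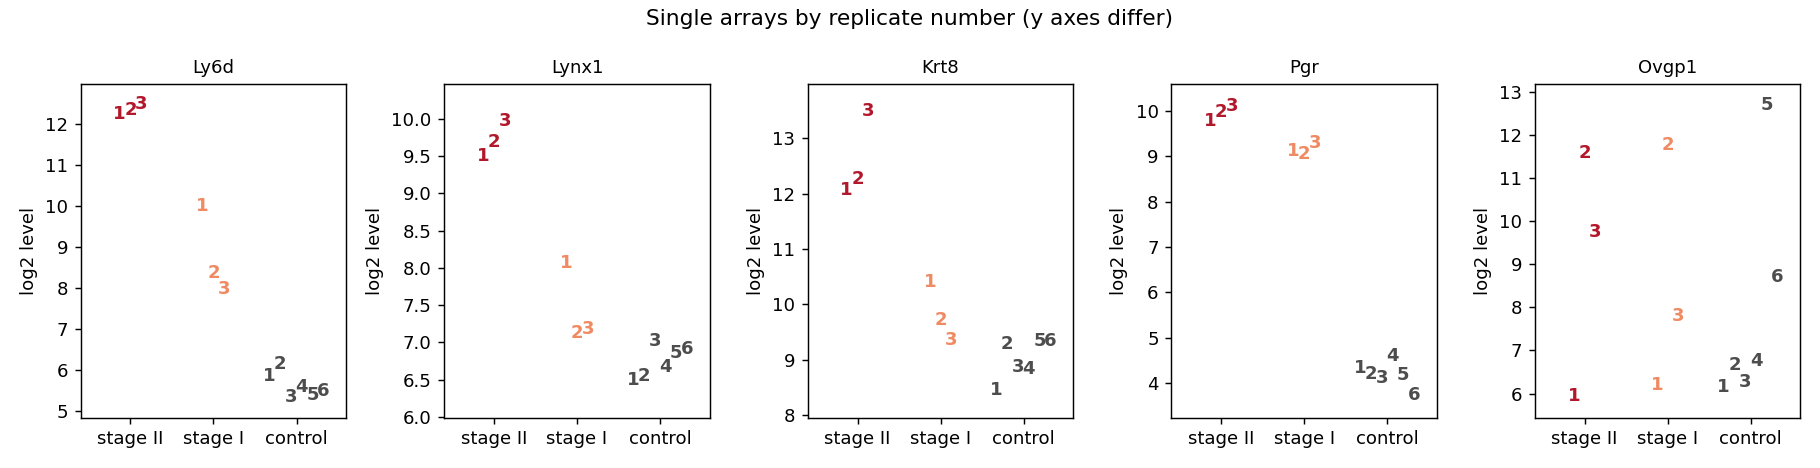
Log2 levels (y axis, scaled separately in each panel) of Ly6d, Lynx1, Krt8, Pgr and the oviduct marker Ovgp1 in stage II, stage I and control ovaries (x axis), with each array drawn as its replicate number. Stage I replicate 1 is the highest of the stage I arrays in Ly6d (10.00), Lynx1 (8.07) and Krt8 (10.41) but not in Pgr (9.11), and Ovgp1 is high on arrays of all 3 groups.

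A marker of the oviduct, which lies next to the ovary, was high on some arrays of each group. This gene, Ovgp1, which encodes a secreted oviduct glycoprotein, was at 5.94, 11.58 and 9.76 in stage II, at 6.21, 11.77 and 7.81 in stage I, with controls between 6.16 and 12.70. Its order did not match that of Ly6d. Stage II replicate 1 had the lowest Ovgp1 of all arrays with a Ly6d level of 12.25, and control replicate 5 had the highest with a Ly6d level of 5.41. Without the 3 arrays with the highest Ovgp1, an alternative chosen after seeing the data, the Ly6d level was above that of controls by 102-fold in stage II and by 9.82-fold in stage I. These values describe a single oviduct gene, and the part of oviduct tissue in the Ly6d level was not tested.

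The other 3 members had low levels and small differences. All of their values lay between 4.70 and 5.70, below the median of every array. Of these 3, Ly6g2 passed the threshold as higher and Ly6h as lower in stage II against controls, beside 20.2% of all probe sets called in that comparison, 9.57% as higher and 10.7% as lower (limma, Benjamini-Hochberg adjusted p under 0.05 over 14674 probe sets). The 1405 higher and 1564 lower calls became 920 and 529 without stage II replicate 3, and 1285 and 2056 with quantile normalization. None of the 3 passed for stage I over control, where 0.191% of all probe sets were called, all of them higher. Between stage II and stage I none of the 3 passed either, where 11.4% were called, 6.25% as higher and 5.12% as lower. With quantile normalization the 917 higher and 752 lower calls between the stages became 888 and 1130. At limma's unadjusted p under 0.05, 2 of the 3 members, Ly6g2 as higher and Ly6h as lower, would have counted between the stages, beside 27.1% of all genes. For stage I over control 0 of the 3 would have counted, beside 6.4% of all genes.

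Ly6g2 was at 5.01, 5.01 and 5.37 in stage II, at 4.85, 4.96 and 4.91 in stage I, with controls between 4.70 and 4.97 around a median of 4.87. Every stage II array lay above the other arrays, by 0.043 for the lowest of them over the highest control. The difference from controls was 1.20-fold (log2 0.27 ± 0.08 SE, limma adjusted p = 0.042). It rested mainly on stage II replicate 3, without which it was 0.15 (adjusted p = 0.23). The call also ended without any of control replicates 1, 2, 3, 5 and 6 or of stage I replicates 2 and 3, with log2 differences of 0.24 to 0.28 (adjusted p up to 0.078).

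Ly6h is known from brain, where its protein binds nicotinic acetylcholine receptors. Its level was 4.78, 5.10 and 4.92 in stage II, 5.34, 5.16 and 5.25 in stage I, and in controls between 5.03 and 5.40 with a median of 5.29. Stage II and control arrays overlapped through stage II replicate 2, and every stage II array lay below the stage I arrays. The log2 difference was -0.31 ± 0.10 SE in stage II against controls (limma adjusted p = 0.041) and -0.32 ± 0.11 SE in stage II against stage I (adjusted p = 0.089). The call against controls ended without any of 4 controls (replicates 2, 3, 5 and 6), of stage II replicates 1 and 3, or of stage I replicate 3, with log2 differences of -0.31 to -0.23 (adjusted p up to 0.17). The difference from stage I passed without stage II replicate 2 (-0.40, adjusted p = 0.045).

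Ly6i is known in mouse from cells of the myeloid lineage. Its level was 5.62, 5.58 and 5.70 in stage II, 5.52, 5.50 and 5.47 in stage I, with controls between 5.25 and 5.56 around a median of 5.48. The stage II arrays lay above all others, but by only 0.024 over the highest control. The difference of 1.13-fold from controls (log2 0.18 ± 0.07 SE) did not pass (limma adjusted p = 0.086), nor did the stage II difference from stage I (0.14 ± 0.08 SE, adjusted p = 0.29).

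A further probe set carries the symbols of both Ly6c2 and Ly6c1 and so falls outside the rule. These near-identical genes encode the Ly6C antigen of mouse monocytes, T cell subsets and some vessels, and the array cannot tell them apart. The log2 level was 10.53, 10.48 and 10.58 in stage II, 10.33, 10.03 and 10.03 in stage I, with controls between 9.86 and 10.24 around a median of 10.12. All stage II arrays lay above all others. Stage II exceeded controls by 1.35-fold (log2 0.43 ± 0.09 SE, limma over all 16376 rows, adjusted p = 0.0059), in a fit that called 19.4% of rows. It exceeded stage I by 0.40 ± 0.10 SE (adjusted p = 0.030). That call did not hold when stage I replicate 2 or 3, or stage II replicate 1 or 3, was left out (adjusted p up to 0.11). In stage I the difference from controls was 0.033 ± 0.090 SE (adjusted p = 0.996).

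Markers of the cells that usually carry Ly6C gave a mixed picture. Of 9 neutrophil and monocyte markers 1 rose in stage II against controls, Camp, an antimicrobial peptide of neutrophil granules (log2 0.42, adjusted p = 0.011). Leaving out stage II replicate 1 ended the call (adjusted p = 0.053). The list averaged 4.63 to 4.79 in stage II, 4.66 to 4.86 in stage I and 4.63 to 4.74 in controls. Of 9 endothelial markers 1 rose, Flt1, a receptor for VEGF (0.82, adjusted p = 0.0057), and all 9 differences were above 0, with a median of 0.21. Without control replicate 4 the count was 2, and without control replicates 1 and 4 together it was 4. By limma 0 of 9 T and NK cell markers passed (1 at an unadjusted p under 0.05, beside 33.4% of all genes), with a median of 0.067, and 1 passed without control replicate 6. In that comparison 20.7% of all genes were called, 9.7% as higher and 11% as lower. The part of these cells in the Ly6c level was not tested.

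The wider family was represented by 12 measured genes with a Ly6/uPAR domain out of 35 listed. Of these 12, 1 rose, 0 fell and 11 did not pass in stage II against controls, beside 20.7% of 10949 genes called, 9.7% as higher and 11% as lower. For stage I over control 0 of 12 passed by limma, beside 0.201% of all genes, and 3 had an unadjusted p under 0.05, beside 6.4% of all genes. Between stage II and stage I 1 of 12 rose, beside 12% of all genes, 6.34% as higher and 5.64% as lower. The median log2 difference of the list was 0.078 in stage II and 0.082 in stage I against controls and 0.047 between the stages, against medians over all genes of -0.014, -0.0015 and -0.0079. The counts varied with the arrays used. Over controls 3 relatives passed in stage II without control replicate 1, and 2 without control replicate 5 or without stage I replicate 1. Between the stages 2 passed without control replicate 1 or without control replicate 2.

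The relative that rose was Lynx1, a GPI-anchored modulator of nicotinic acetylcholine receptors known from brain. Its log2 level was 9.50, 9.69 and 9.97 in stage II, 8.07, 7.13 and 7.18 in stage I, with controls between 6.49 and 7.02. All 3 groups were free of overlap, in the same order as for Ly6d. Lynx1 was 7.83-fold higher in stage II than in controls (log2 2.97 ± 0.20 SE, limma adjusted p = 1.1e-06). Over stage I the excess in stage II was 4.80-fold (2.26 ± 0.23 SE, limma adjusted p = 0.00014). With each array left out in turn these differences ran from 2.84 to 3.08 and from 2.10 to 2.57, and both passed in every alternative tried. In stage I the difference of 0.71 ± 0.20 SE from controls did not pass (adjusted p = 0.39), and it was 0.40 without stage I replicate 1. The RefSeq table gives SLURP-2 as another name of Lynx1, and the transcripts behind this probe set were not examined.

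**Figure D3:**
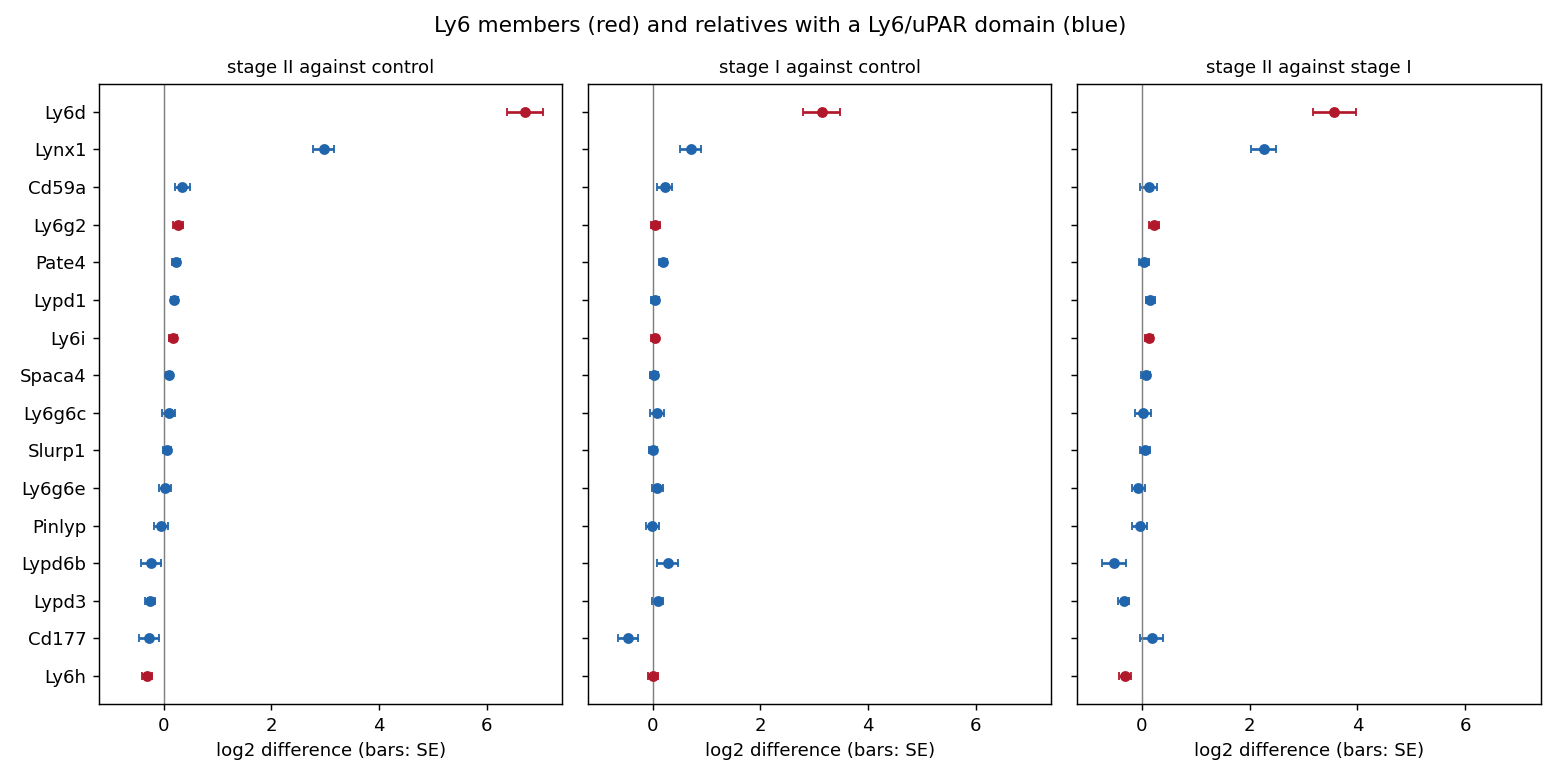
Log2 differences (x axis, points with SE bars) of the 4 members in red and the 12 relatives in blue (y axis) for both stages over control and for stage II over stage I. Ly6d (6.71, 3.14 and 3.57) and Lynx1 (2.97, 0.71 and 2.26) stand to the right, and all other genes shown lie between -0.51 and 0.35.

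The other 11 relatives did not pass in any of the 3 comparisons, with log2 differences between -0.51 and 0.35. Cd59a, which protects cells from complement lysis, averaged 9.22 ± 0.15 in stage II (SD, n = 3), 9.09 ± 0.13 in stage I (n = 3) and 8.87 ± 0.26 in controls (n = 6). Its log2 difference of 0.35 in stage II against controls did not pass (limma adjusted p = 0.094). Lypd3, known as C4.4A from epithelia, differed by -0.25 (adjusted p = 0.086), and Cd177, a neutrophil surface protein, differed by -0.27 (adjusted p = 0.33). In stage I Cd177 had the lowest difference of the list, -0.45, which did not pass (adjusted p = 0.73). Slurp1, a secreted member made by keratinocytes, was at 6.00 ± 0.06 in stage II, 5.94 ± 0.12 in stage I and 5.93 ± 0.11 in controls.

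Lynx1 is also the gene next to Ly6d on chromosome 15, at 1 place before it in the gene order of the RefSeq table. On the other side the next gene is Ly6g6g, a further gene named for Ly6, at 4.38 ± 0.15 in stage II, 4.43 ± 0.14 in stage I and 4.41 ± 0.10 in controls (log2 difference -0.029 in stage II against controls, limma adjusted p = 0.86). Of the 5 measured genes before Ly6d, only Lynx1 passed in stage II against controls. In the same comparison Slurp1, Them6, 4933427E11Rik and Jrk differed by 0.062, 0.19, 0.16 and -0.088 (adjusted p from 0.14 to 0.66). The 5 measured genes after Ly6d were Ly6g6g, Ly6i, Ly6g2, Ly6h and Gsdmd. Gsdmd, which encodes the pore-forming gasdermin D, differed by 0.14 (adjusted p = 0.33). Among the 5 measured genes on each side of Ly6a, those not yet named were Eef1d (-0.10, adjusted p = 0.63) and Pycrl (-0.16, adjusted p = 0.16). Genes of this stretch with no probe set of their own in the table were not analysed here.

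**Figure D4:**
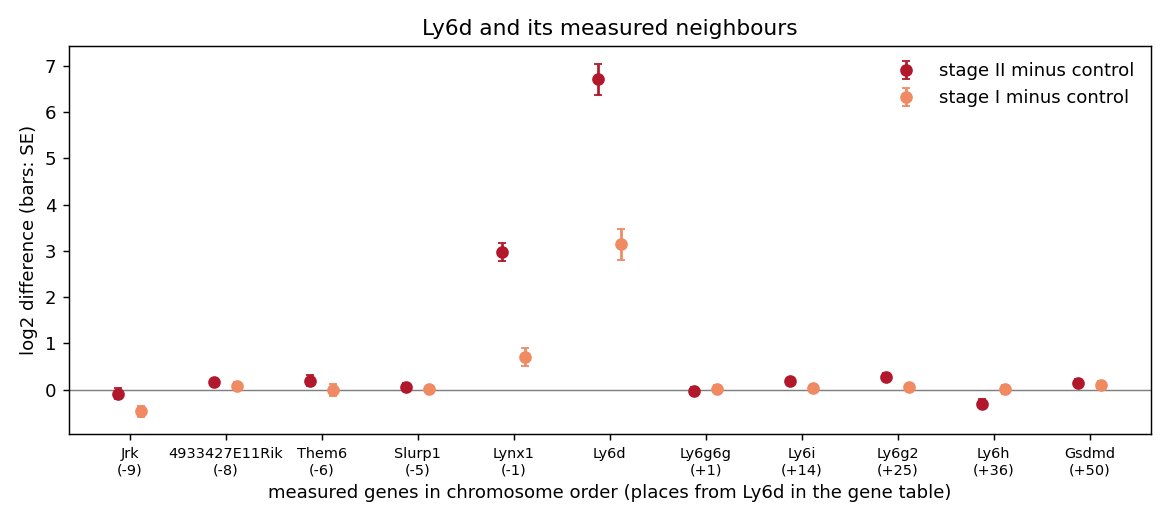
Log2 differences from control (y axis, points with SE bars) in stage II (red) and stage I (orange) for Ly6d and the 5 measured genes on each side in chromosome order (x axis). Numbers in brackets are places from Ly6d in the gene table, which also counts genes not measured. Ly6d (6.71 and 3.14) and the adjacent Lynx1 (2.97 and 0.71) stand above the others, which lie between -0.47 and 0.27.

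The levels of several genes followed Ly6d closely from array to array. Among 1372 genes whose highest and lowest arrays differed by at least 1, the 8 with the highest Pearson r over the 12 arrays were Prl7a2 (0.992), Nmb, Pdzk1ip1, Gldc, Timp2, Defb8, Ccnd1 and Itch (0.986). The points share the 3 groups, so r reflects the order of the groups first. Over the 6 stage arrays alone the same 8 genes had r from 0.965 to 0.994, and over the 6 controls from -0.59 to 0.66. Prl7a2, a placental prolactin-family hormone, was at 11.96, 11.44 and 11.61 in stage II, 9.34, 7.22 and 7.01 in stage I, with controls between 3.00 and 3.51. Ccnd1, which encodes the G1 cyclin D1, was at 12.36, 12.51 and 12.83 in stage II, 11.56, 9.91 and 9.97 in stage I, with controls between 7.83 and 8.50.

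All 8 genes were highest in stage I replicate 1 among the stage I arrays, as Ly6d was. The spans differed widely, from 8.41 for Prl7a2 and 7.52 for Defb8, a beta-defensin, to 1.17 for Itch, a ubiquitin ligase, as log2 differences between stage II and controls. Timp2, an inhibitor of matrix metalloproteinases, differed by 3.75, Nmb, the peptide neuromedin B, by 4.51, Gldc, the glycine decarboxylase, by 4.48, and Pdzk1ip1, a small membrane protein of epithelia, by 4.06. The 3 genes with the lowest r were Cnn1 (-0.961) and Actg2 (-0.951), which encode calponin and the gamma actin of smooth muscle, and Myom1 (-0.933), a protein of the muscle M-band. Among the members, r with Ly6d over the 12 arrays was 0.71 for Ly6i, 0.69 for Ly6g2 and -0.62 for Ly6h. These values, chosen for their likeness, are a description with no test.

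**Figure D5:**
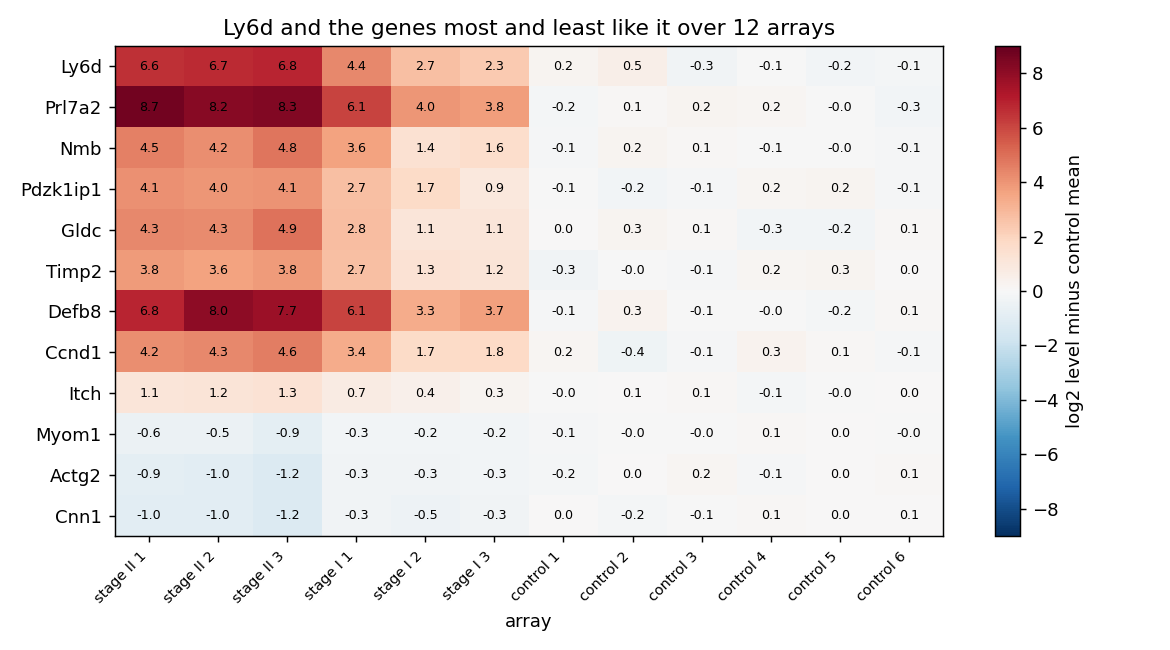
Log2 level minus the control mean (colour and printed values) of Ly6d, the 8 genes most like it and the 3 least like it (rows) on each of the 12 arrays (columns, stage II, stage I, control). In the first 9 rows stage I replicate 1 lies above stage I replicates 2 and 3 and below stage II. In Myom1, Actg2 and Cnn1 every stage II array lies below every stage I array.

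Of the markers of B cells and stratified epithelium, the cells known for Ly6d, none passed as higher in stage II with all 12 arrays. Of 8 measured B cell markers 0 passed in any of the 3 comparisons, beside 20.7%, 0.201% and 12% of all genes called for stage II over control, stage I over control and between the stages. Without stage II replicate 2 Jchain, the joining chain of secreted antibodies, passed as lower in stage II than in controls (log2 -1.14, limma adjusted p = 0.040). At limma's unadjusted p under 0.05 the counts were 0 for stage II and 1 for stage I over control and 0 between the stages, beside 33.4%, 6.4% and 27.1% of all genes. The lowest adjusted p of the list in stage II over controls was 0.23, for Ms4a1, the CD20 antigen (log2 difference -0.23). Cd79a, part of the B cell receptor, was at 4.64 ± 0.09 in stage II, 4.58 ± 0.09 in stage I and 4.64 ± 0.20 in controls. The list averaged 5.60 to 5.72 in stage II, 5.64 to 5.68 in stage I and 5.61 to 5.90 in controls.

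Of 12 stratified epithelium markers 0 rose and 1 fell in stage II against controls, beside 9.7% of all genes called higher and 11% called lower. That gene was Dsp, the desmosomal protein desmoplakin (log2 -0.58, limma adjusted p = 0.0097), whose call ended without stage II replicate 3 (adjusted p = 0.062). Without stage II replicate 2 the list had 2 calls, 1 higher and 1 lower. Krt5, a keratin of basal cells, was at 5.82 ± 0.10 in stage II, 5.82 ± 0.09 in stage I and 5.77 ± 0.13 in controls, and its partner Krt14 at 5.02 ± 0.17 in stage II, 5.07 ± 0.19 in stage I and 4.97 ± 0.10 in controls. Trp63, the transcription factor of basal epithelium, was at 6.36 ± 0.03 in stage II, 6.47 ± 0.25 in stage I and 6.41 ± 0.16 in controls. Between the stages 0 of the 12 passed by limma (2 at an unadjusted p under 0.05, beside 27.1% of all genes), and 1 passed without control replicate 1 or 2. For stage I over control 0 passed, beside 0.201% of all genes called (1 unadjusted, beside 6.4%). The list averaged 4.92 to 5.00 in stage II, 4.93 to 5.08 in stage I and 4.90 to 4.98 in controls, low levels with no measured background. The parts of B cells and stratified epithelium in the Ly6d level were not tested.

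Some markers of simple epithelia rose in stage II, as Ly6d did. Of 8 measured, 3 rose and 0 fell in stage II against controls, namely Krt8, Cldn3 and Elf3, beside 20.7% of all genes called, 9.7% as higher and 11% as lower. Of the 8 differences 4 were below 0, and without control replicates 1 and 4 together 3 rose and 2 fell. Krt8, Cldn3 and Elf3 also rose in stage II against stage I. Krt8, a keratin of simple epithelia, was at 12.06, 12.26 and 13.49 in stage II, 10.41, 9.72 and 9.36 in stage I, with controls between 8.45 and 9.33. It was higher in stage II than in controls (log2 3.59 ± 0.32 SE, limma adjusted p = 9.3e-06). Cldn3, a tight junction claudin, rose 2.67-fold and Elf3, an epithelial transcription factor, rose 1.76-fold. Epcam, an adhesion protein of most simple epithelia, had a difference of -0.67 (adjusted p = 0.15) and Krt7 one of -0.40 (adjusted p = 0.49), and neither passed. Between the stages only 1 of the 3 calls was left without stage I replicate 3 or without stage II replicate 3. In stage I 0 of 8 passed by limma (2 at an unadjusted p under 0.05, beside 6.4% of all genes), and 1 passed without stage I replicate 3. The list averaged 7.68 to 8.07 in stage II, 7.32 to 7.82 in stage I and 6.67 to 7.72 in controls. In each group its highest array was also the highest in the mean of the oviduct markers. These were stage II replicate 2, stage I replicate 2 and control replicate 5, while the remaining order differed in stage I and in controls. The part of oviduct tissue in this list, and the part of the list in the Ly6d level, were not tested.

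Other GPI-anchored surface proteins went in both directions. Of 17 measured, 4 rose and 4 fell in stage II against controls, with 9 not passing, beside 20.7% of all genes called. Cd24a, a small mucin-like antigen, was at 11.15, 11.41 and 12.35 in stage II, 9.86, 9.67 and 9.23 in stage I, with controls between 8.26 and 9.43, and rose 8.10-fold in stage II (log2 3.02 ± 0.28 SE, limma adjusted p = 1.5e-05). Cd109, a co-receptor of TGF-beta signalling, rose 2.20-fold (adjusted p = 0.0017). Gpc1, the proteoglycan glypican 1, had a log2 difference of -1.17 (adjusted p = 0.0039). The 8 calls became 5 without stage II replicate 3. Between the stages 3 rose, Cd24a, Cd109 and Efna5, an ephrin ligand, and 0 fell, beside 12% of all genes called, while 5 passed without stage II replicate 2. With the compared groups alone the count was 1, and Cd109 (adjusted p = 0.052) and Efna5 did not pass. The Efna5 call also ended without stage I replicate 2 or 3 or without stage II replicate 1 or 3 (adjusted p from 0.058 to 0.13). For stage I over control 0 passed by limma (3 at an unadjusted p under 0.05, beside 6.4% of all genes).

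Of 17 measured genes that build the GPI anchor, 2 rose and 2 fell in stage II against controls and 13 did not pass, beside 20.7% of all genes called. Those called included Pigk, the catalytic subunit of the transamidase that attaches the anchor (log2 0.31, limma adjusted p = 0.022), and Pigx, a subunit of the first mannosyltransferase (-0.29, adjusted p = 0.021). The 4 calls became 2 without stage II replicate 1 and 1 without stage II replicate 3. By limma 0 passed for stage I over control, beside 0.201% of all genes called (0 at an unadjusted p under 0.05, beside 6.4%). Between the stages 0 passed, beside 12% of all genes called (6 unadjusted, beside 27.1%). In that comparison 1 or 2 passed without control replicate 1, control replicate 4, stage II replicate 2 or the first stage I array. The list averaged 7.71 to 7.73 in stage II, 7.73 to 7.78 in stage I and 7.74 to 7.80 in controls.

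Interferon response genes, a group known to be induced together with several mouse Ly6 genes, rose in part in stage II. Of 14 measured, 7 rose and 0 fell against controls, beside 20.7% of all genes called and 9.7% called higher, with a median of 0.47. Usp18, which removes ISG15 from proteins, rose 2.28-fold (limma adjusted p = 0.013), a call lost without stage II replicate 1 or 3, and Rsad2, the antiviral protein viperin, rose 1.83-fold (adjusted p = 0.0045). The count was 1 without stage II replicate 3, 3 without stage II replicate 1 and 4 without any of control replicates 1, 2 and 5, whereas it was 11 with array weights. In stage I all 14 were above 0 with a median of 0.25, and 0 passed by limma (2 at an unadjusted p under 0.05, beside 6.4% of all genes). Between the stages only Rsad2 passed, as higher, beside 12% of all genes called and 6.34% called higher. That count ran from 0 to 4 with single arrays left out. The list level of single arrays was 7.84 to 8.04 in stage II, 8.09, 7.52 and 7.61 in stage I and 7.33 to 7.70 in controls.

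Of 6 measured macrophage markers 5 rose and 0 fell in stage II against controls, beside 20.7% of all genes called and 9.7% called higher. Cd14, the lipopolysaccharide co-receptor, which is itself GPI-anchored, was at 9.43, 9.62 and 10.16 in stage II, 8.75, 7.78 and 7.76 in stage I, with controls between 6.99 and 7.45. It rose 5.68-fold in stage II against controls (limma adjusted p = 5.6e-06) and 3.12-fold in stage II against stage I (adjusted p = 0.0016). Cd14 had the largest difference from controls of the list, followed by Fcgr1 (1.56-fold) and C1qa (1.44-fold). It was the only 1 of the 6 called between the stages, beside 12% of all genes, and the list median there was 0.047. The count of 5 was 2 or 3 without any of control replicates 1 to 4 or any stage II array. In stage I 0 passed by limma (5 at an unadjusted p under 0.05, beside 6.4% of all genes), and 1 passed without stage I replicate 2. The mean of the list was 8.93 to 9.17 in stage II, 8.38 to 9.05 in stage I and 8.04 to 8.41 in controls. Of 4 oviduct markers 0 passed by limma in any of the 3 comparisons. Of all genes 20.7% were called for stage II and 0.201% for stage I over control, and 12% between the stages. At an unadjusted p under 0.05 the counts were also 0, beside 33.4%, 6.4% and 27.1% of all genes in that order. The log2 differences of Ovgp1 had an SE of 1.63 over controls and 1.88 between the stages, so these counts do not show equal oviduct content.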

How the data were processed

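Per the labels, total RNA of each ovary was extracted with Trizol, purified on columns, labelled and read on 1 array; the labels name biotin as the label, while their labelling protocol lists Cy3 and Cy5. The authors deposited 1 log2 value per probe set and array; how they were summarised and normalized is not given in the sources used here. A log2 scale was inferred from the values, which end at 14.4, above the 11.1 where a natural log of 16-bit data ends.

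Of 16376 rows, the platform annotation pairs 14674 with 1 symbol, 427 with several and 1275 with none. All 14674 were fitted with limma 3.58.1 in R 4.3.3, with 1 mean for each of the 3 groups, and p-values were adjusted by Benjamini-Hochberg over all of them at a threshold of 0.05. Genes on 13 lists (135 of 226 entries measured) were read from their brightest probe set. Named genes were all members, the largest changes per list, 5 measured neighbours on each side, and the 8 genes most and 3 least like Ly6d. Some further list members were named after their values were seen. Members and lists were chosen with earlier results of these data known. Alternatives were quantile normalization, centred medians, a filter on dim probe sets, 1 probe set per gene, every row, the compared groups alone, array weights, a robust prior, a replicate block and leaving out arrays. The fit was tested on simulated data. The number of arrays limits the precision.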

Additional observations from a re-analysis of the deposited data

Results flagged for a closer look

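Among the controls Ly6i had an array set apart from the rest. Control replicate 3 was at 5.25, and its gap to the next control made up 0.675 of the range of the 6 controls. The 4 members were examined this way, and chance marks about 1 in 20 such groups. Without that array the Ly6i difference between stage II and controls did not pass either.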

How the results depend on the processing

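The Ly6d differences kept their direction in all alternatives, with log2 values of 6.56 to 6.81 for stage II against controls, 2.53 to 3.54 for stage I against controls and 3.17 to 4.18 for stage II against stage I. Equal replicate numbers were not treated as pairs in the main fit. Deviations from the group means correlated between -0.15 and 0.20 for equal numbers, which with 3 arrays per stage does not exclude pairing. Blocking on the replicate number left 1379, 6 and 775 probe sets called in these comparisons against 2969, 28 and 1669, and Ly6g2 (0.30) and Ly6h (-0.32) no longer passed in stage II against controls. Of the calls in stage II against controls under the block 897 were higher and 482 lower. Single lists then gave 3 of 14 interferon, 2 of 6 macrophage, 1 of 17 anchor assembly, 0 of 12 stratified epithelium and 4 of 10 ovary genes, without Cyp17a1 (adjusted p = 0.13). The block gave 2 relatives with a Ly6/uPAR domain and 26 genes over all lists in stage II against controls, and 9 over all lists in stage II against stage I, against 1, 40 and 19. With the compared groups alone, stage II against stage I gave 553 calls and 6 over the lists, and Ly6g2 (0.27) and Ly6h (-0.31) did not pass in stage II against controls. Array weights gave 2771 calls and 38 over the lists in stage II against stage I, 5 and 3 relatives in stage II against controls and against stage I, and a Ly6h call between the stages (-0.37), with 5 of 9 endothelial markers passing in stage II against controls and against stage I. With centred medians Ly6g2 (0.25) did not pass, and 2 relatives passed in stage II against stage I. Without control replicates 1 and 4 together, stage I against control gave 16 calls, relatives passing numbered 4 and 3, the lists gave 32 in stage II against stage I, and Ly6h passed there (-0.32). Without the 3 arrays with the highest Ovgp1, the counts were 15 in stage I against control and 666 in stage II against stage I, and Ly6g2 (0.33) and Ly6h (-0.39) did not pass. With single arrays left out, calls ran from 1449 to 3131 in stage II against controls (lowest without stage II replicate 3), from 22 to 35 in stage I against controls and from 739 to 1961 in stage II against stage I (759 and 748 without replicates 2 and 3 of stage I, and 739 without stage II replicate 3). In these fits the lists gave 22 to 42, 0 to 1 and 10 to 26, relatives 1 to 3 and 1 to 2, Ly6g2 0.15 to 0.33 and Ly6h -0.39 to -0.23, with -0.40 to -0.24 against stage I. Ly6g2 and Ly6h fall among the dimmest 25 percent of probe sets and have no value under that filter. The causes of these changes were not tested. Members other than Ly6d lie near the low end of the scale, as Ly6d itself does in controls (mean 5.65, beside 5.46 for Ly6i). Small differences in the other members, and the size of the Ly6d folds over controls, have no measured background to be read against.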
